A study of Mus musculus with 12 samples.

Results

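Genes of neuroblasts and young neurons were followed in neurosphere cultures of mouse neural stem cells (NSCs) that have or lack Ncf1, which encodes an organizer subunit of the phagocyte-type NADPH oxidase. The group was set by name and holds 10 genes of the 45792 in the deposited tables: Dcx, Tubb3, Stmn2, Map2, Elavl3, Elavl4, Sox4, Sox11, Cd24a and Ncam1. Each name matched 1 gene, and each of the 10 passed the filter on low counts that left 15706 genes for testing, Stmn2 through its WT libraries alone. The 12 libraries came from primary cultures of newborn forebrain, 4 of WT NSCs without treatment, 4 of Ncf1-/- NSCs labelled as untreated (given vehicle, according to the methods of the study) and 4 of Ncf1-/- NSCs given mouse recombinant Igfbp2, a secreted protein that binds insulin-like growth factors. The labels give Igfbp2 at 100 ng/ml for 48 h, whereas the methods name a lower concentration. Cells were grown in serum-free medium with EGF and FGF, and RNA was taken under conditions that favour proliferation, so the cultures hold proliferating NSCs and whatever progeny they formed. The Ncf1-/- allele was back-crossed to C57BL/6J, and by the methods the Ncf1-/- pups used for neurospheres could also carry a ubiquitous tdTomato reporter at the Gt(ROSA)26 locus.

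New neurons of the postnatal forebrain pass from stem cell through a dividing progenitor to a neuroblast, which migrates in chains before it settles and extends processes. Neuroblasts are known by a shared set of molecules: microtubule proteins that permit migration and neurite growth (Dcx, Tubb3, Stmn2, Map2), RNA-binding proteins of the Hu family that stabilize and splice neuronal transcripts (Elavl3, Elavl4), SoxC transcription factors that switch on pan-neuronal genes (Sox4, Sox11), and surface proteins of immature neurons (Cd24a, Ncam1). These genes are not all exclusive to neurons. Sox4, Sox11, Map2, Ncam1 and Cd24a are also transcribed in progenitors or in cells of the oligodendrocyte lineage. Whether the other members are confined to neurons in these cultures was not tested.

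Several properties of the libraries touch all of the results. Each library held between 18201622 and 34086554 estimated counts, the largest being WT replicate 3. Ncf1 itself had between 1 and 7 counts in every library, with 2 to 4.39 in vehicle-treated Ncf1-/- NSCs, so its RNA could not be used to check the genotype. The summed level of 4 Y-linked genes was 105 to 116 CPM (read counts scaled to a common library size, with TMM as the library-size correction) in vehicle-treated and 7.79 to 9.18 CPM in Igfbp2-treated Ncf1-/- cultures, although the methods state that both came from the same animals. Treatment and sex-linked expression therefore cannot be told apart here. In WT it was 107 to 118 CPM in 3 libraries and 6.46 CPM in WT replicate 4, which a sample sheet in the code of the study lists as treated with apocynin, an oxidase inhibitor, while its label says untreated. WT cultures were also more variable than the others, with a biological coefficient of variation of 0.25 against 0.118 in vehicle-treated and 0.122 in Igfbp2-treated Ncf1-/- cultures.

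Markers of other cells moved with the groups. Between vehicle-treated Ncf1-/- and WT cultures 57.2% of all genes tested were called (adjusted p under 0.05, test described below). Of all genes 28.9% were higher and 28.2% lower, and the marker counts can be read beside these shares. Of 13 oligodendrocyte lineage markers 11 were lower and 2 higher in vehicle-treated Ncf1-/- than in WT cultures, with summed levels of 2290 to 2470 CPM against 4750 to 15000 CPM. Of 7 astrocyte markers tested out of 8, 6 were lower and 0 higher, with sums of 3070 to 3630 CPM against 6720 to 12600 CPM. All 8 markers of dividing cells were higher (1360 to 1790 CPM against 287 to 552 CPM), and the 7 NSC markers split into 3 higher and 3 lower (7950 to 8770 CPM against 2430 to 8090 CPM). WT replicate 3 stood apart, with the highest NSC sum (8090 CPM) and the lowest oligodendrocyte sum (4750 CPM) of the WT cultures. Microglial markers (2 of 8 tested, 1 higher) summed to at most 2.13 CPM in any library, with C1qa at 0 in all 12, and vascular and mesenchymal markers (5 of 8 tested, 3 higher and 1 lower) to at most 24.5 CPM. Both microglial markers and 4 of the 5 vascular and mesenchymal markers passed the filter on low counts through the Ncf1-/- libraries alone, and 2 oligodendrocyte markers through WT alone, which favours a call in the direction given. With Igfbp2 against vehicle 25% of all genes were called, 14.2% higher and 10.7% lower. There, 3 of the 5 vascular and mesenchymal markers, 1 of the 13 oligodendrocyte markers and 1 NSC marker were higher. No astrocyte, microglial or dividing cell marker was called. In bulk RNA, fewer cells of a type and less RNA per cell cannot be told apart, and the part that these shifts have in the results below was not tested.

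To show where the genes discussed here start, the bases just upstream of Dcx, Elavl3 and Elavl4 are given from RefSeq (GRCm38.p6). The fall of Dcx with Igfbp2 was the largest of the 10, and the paired genes Elavl3 and Elavl4 moved in opposite directions without Ncf1. Bases run 5′ to 3′ on the strand of the gene and lie outside annotated exons of the 10 genes. Exons of other genes were not checked. Capitals mark CAGCTG, an E-box of the kind that proneural basic helix-loop-helix factors bind, which reads the same on both strands.
Dcx (chrX:143933312-143933469, minus strand): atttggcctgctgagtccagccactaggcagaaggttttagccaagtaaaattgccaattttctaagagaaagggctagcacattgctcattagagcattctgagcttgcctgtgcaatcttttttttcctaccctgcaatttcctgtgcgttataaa
Elavl3 (chr9:22052024-22052273, minus strand): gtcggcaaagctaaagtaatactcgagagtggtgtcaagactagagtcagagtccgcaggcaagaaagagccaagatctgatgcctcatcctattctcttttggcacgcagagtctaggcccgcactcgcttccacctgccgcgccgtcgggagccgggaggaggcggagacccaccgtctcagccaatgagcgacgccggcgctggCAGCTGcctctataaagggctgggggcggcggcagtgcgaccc
Elavl4 (chr4:110287528-110287777, minus strand): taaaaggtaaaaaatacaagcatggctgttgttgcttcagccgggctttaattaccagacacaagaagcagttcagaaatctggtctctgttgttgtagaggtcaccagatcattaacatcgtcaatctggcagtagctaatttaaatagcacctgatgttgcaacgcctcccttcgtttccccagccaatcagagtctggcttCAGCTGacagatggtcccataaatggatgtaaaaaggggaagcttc
Promoter windows were found for 7 of the 10 genes (Dcx, Tubb3, Map2, Elavl3, Elavl4, Sox4 and Sox11). Within the 250 bases before a listed start, CAGCTG lay in a window of 4 of them, Elavl3, Elavl4, Sox4 and Sox11, against 13% of 32851 mouse windows and 14.7% of genes. Of these 4 genes, Elavl3 and Sox4 were lower and Elavl4 and Sox11 higher in Ncf1-/- cultures, so the motif did not go with 1 direction. In Elavl3 it lay 43 bases and in this Elavl4 window 46 bases before the start. The Elavl4 window shown is that of an internal start and was chosen because it holds the motif. The most upstream start of Elavl4 had no CAGCTG.

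To compare levels between genes, TPM (an RSEM measure that corrects for gene length and sums to a fixed total per library) was used. In WT cultures Map2 (151.4 ± 12 TPM, SD, n = 4), Sox4 (132 ± 24.6 TPM) and Ncam1 (96.82 ± 29 TPM) had the highest means. Ranges of the 3 overlapped, since Ncam1 ran from 72.21 TPM to 136.6 TPM in WT replicate 4 and the lowest Map2 library was at 135.5 TPM. Within a library Map2 exceeded Ncam1 in each WT replicate. Sox4 exceeded Map2 in WT replicate 3 and lay below Ncam1 in WT replicate 4, so its place in the order varied. Cd24a (28.34 ± 19 TPM) and Elavl3 (25.35 ± 12.7 TPM) overlapped in the middle, and so did Tubb3 (14.13 ± 2.73 TPM) and Sox11 (13.48 ± 2.32 TPM). The highest library of Dcx (8.445 ± 1.79 TPM) reached the range of Tubb3 but not that of Sox11. Within a library Dcx was below both in each WT replicate. Elavl4 (2.488 ± 0.844 TPM) and Stmn2 (0.39 ± 0.0949 TPM) were the least abundant.

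The order changed without Ncf1. In vehicle-treated Ncf1-/- cultures Cd24a stood at 89.1 ± 21.9 TPM, among Sox4 (103.1 ± 12 TPM) and Ncam1 (65.15 ± 13.5 TPM), while Dcx (0.9575 ± 0.172 TPM) and Elavl3 (2.132 ± 0.288 TPM) lay below Elavl4 (4.38 ± 0.433 TPM). The summed TPM of the 10 genes was 397.2 to 528.6 in WT, 356.3 to 492.6 in vehicle-treated and 240.6 to 356.4 in Igfbp2-treated Ncf1-/- cultures. In each library 5 structural RNA genes took between 56% and 72.3% of all TPM, with 62.1% to 72.3% in Igfbp2-treated and 56% to 60.3% in vehicle-treated Ncf1-/- cultures, so TPM was not used to compare groups, and levels below are in CPM.

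**Figure D1:**
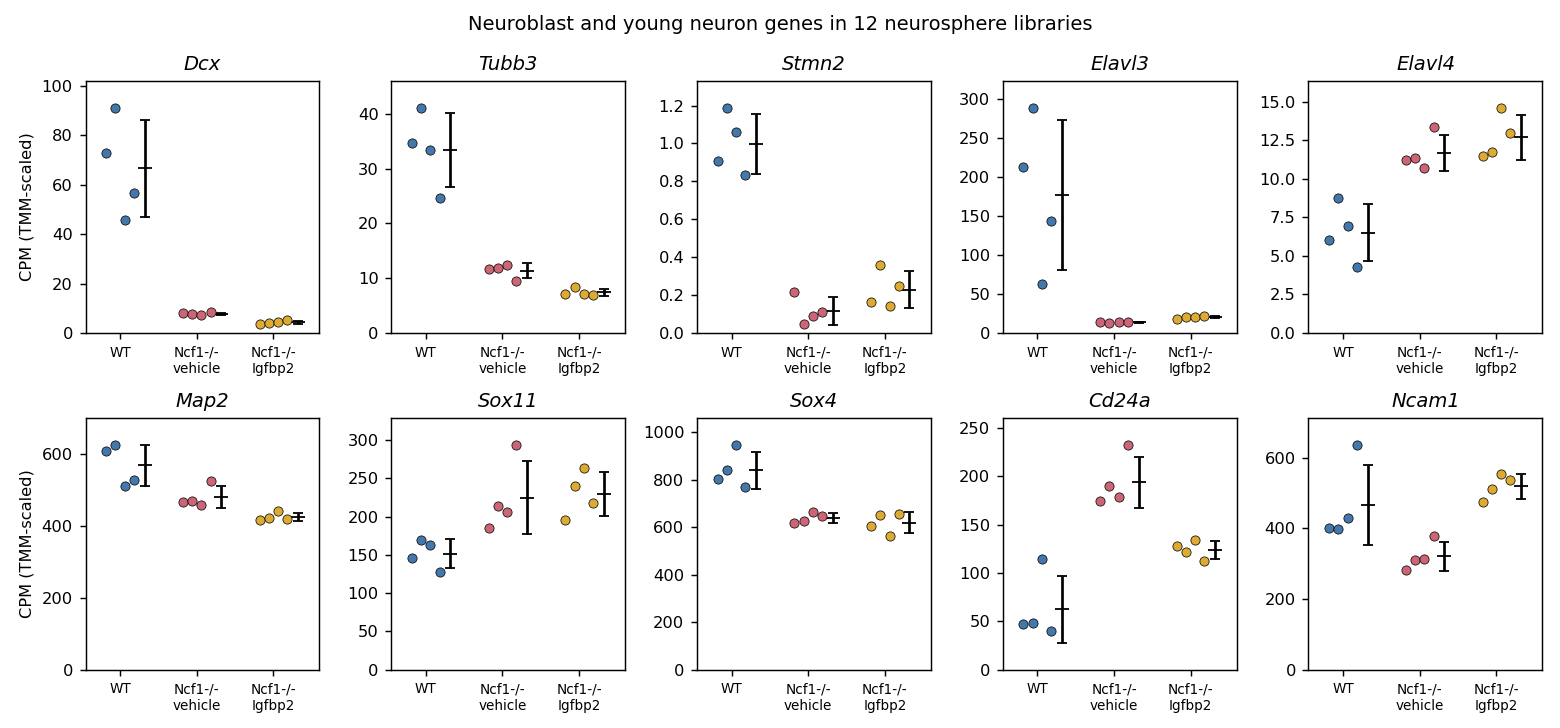
Level of each of the 10 genes in CPM (TMM-scaled, linear axes from 0) in every library, with 4 points per group and the mean ± SD at the right of each group. Dcx, Tubb3, Stmn2 and Elavl3 are higher in each WT library than in any Ncf1-/- library, Cd24a is highest in vehicle-treated Ncf1-/- cultures, and Ncam1 is lowest there.

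To ask how the 10 genes differ without Ncf1, vehicle-treated Ncf1-/- cultures were compared with WT (edgeR quasi-likelihood test over all 3 groups, two-sided, Benjamini-Hochberg adjustment over all 15706 genes, called at an adjusted p under 0.05). All 10 genes were called, 7 lower (Dcx, Tubb3, Stmn2, Map2, Elavl3, Sox4 and Ncam1) and 3 higher (Elavl4, Sox11 and Cd24a). Stmn2 had passed the filter only because its WT libraries were high, so its call was favoured by the filter, and the other 9 split into 6 lower and 3 higher. The comparison moved much of the transcriptome: 57.2% of all genes were called, 28.9% higher and 28.2% lower. Over the 10 genes the log2 fold changes had a median of −0.47, beside 0.02 for all genes tested. In 9 of the 10 genes, Map2 being the exception, the 4 libraries of a group lay entirely above or below the other 4, as did 51.2% of all genes.

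Among the microtubule genes, Dcx, the doublecortin that bundles microtubules in migrating neuroblasts, was at 73, 91.1, 45.72 and 56.68 CPM in WT replicates 1 to 4 and at 7.97, 7.55, 7.11 and 8.36 CPM in vehicle-treated Ncf1-/- cultures. The groups were far apart, and the Ncf1-/- libraries lay within a narrow band. Dcx was 8.58-fold lower (log2 fold change −3.10 ± 0.19, SE, edgeR adjusted p = 8.34e-08). Tubb3, the β-tubulin used as a marker of young neurons, was at 34.61, 41.07, 33.33 and 24.61 CPM in WT and 11.63, 11.95, 12.45 and 9.44 CPM without Ncf1. Its groups did not overlap either, with a 2.94-fold lower level (−1.56 ± 0.14, edgeR adjusted p = 1.57e-06).

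Stmn2, a stathmin that destabilizes microtubules in growth cones, was near the limit of detection. It had 15 to 37 counts in WT (0.835 to 1.19 CPM) and 1 to 5 counts in vehicle-treated Ncf1-/- libraries (0.0484 to 0.218 CPM). The difference of −3.03 ± 0.37 (edgeR adjusted p = 1.47e-05) rests on these few reads, and in the 8 Ncf1-/- libraries alone Stmn2 was below the filter, so it is given as a description. Map2, which stabilizes microtubules in dendrites and is also made in progenitors, was at 608.4, 625.9, 512.1 and 528.3 CPM in WT and 467.1, 469.3, 458.6 and 524.9 CPM in Ncf1-/- cultures. Ncf1-/- replicate 4 lay above WT replicate 3, so these groups overlapped. The fall of 0.24 ± 0.09 on the log2 scale was just past the threshold (edgeR adjusted p = 0.0302) and was lost in 10 of 22 alternative settings, among them library totals without TMM factors (−0.06, adjusted p = 0.596).

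The paired Hu genes went opposite ways. Elavl3 (HuC), which appears as neurons are born, was at 212.5, 287.9, 62.53 and 143.1 CPM in WT and at 13.9, 13.4, 13.51 and 14.66 CPM in vehicle-treated Ncf1-/- cultures. Its WT levels spread more than those of most members, and WT replicate 3 was the lowest. It was 12.7-fold lower without Ncf1, the largest difference of the 10 in this comparison (−3.67 ± 0.35, edgeR adjusted p = 2.14e-06). Elavl4 (HuD), its relative, was at 6.05, 8.74, 6.91 and 4.29 CPM in WT and at 11.2, 11.32, 10.73 and 13.36 CPM in Ncf1-/- cultures. It rose 1.79-fold with no overlap (0.84 ± 0.17, edgeR adjusted p = 0.00104), a call lost with the test that the study applied to TPM (0.81, adjusted p = 0.164). Within a library the TPM of Elavl3 was 17.2, 12.7, 3.29 and 11.6 times that of Elavl4 in WT and 0.417 to 0.57 times that of Elavl4 in vehicle-treated Ncf1-/- cultures, so Elavl3 exceeded Elavl4 in each WT library and was below it in each Ncf1-/- library.

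The SoxC genes also parted. Sox11 was at 145.7, 169.7, 162.9 and 128.1 CPM in WT and at 184.9, 213.4, 206 and 293.7 CPM in vehicle-treated Ncf1-/- cultures. It was 1.48-fold higher (0.57 ± 0.15, edgeR adjusted p = 0.00469), and Ncf1-/- replicate 4 was the highest of all. The call was lost with limma on log2(TPM + 1) and log2(TPM + 0.1) (adjusted p = 0.0535 and 0.0529) and with the test of the study on TPM (adjusted p = 0.387), and the log2 difference was 0.37 without Ncf1-/- replicate 4 (adjusted p = 0.0189). Sox4 was at 802.3, 843.1, 947.9 and 767.8 CPM in WT and at 618, 625.1, 663.8 and 648.6 CPM without Ncf1. That was 1.32-fold lower (−0.40 ± 0.09, edgeR adjusted p = 0.00234). The ratio of Sox4 to Sox11 TPM was 8.75 to 10.5 in WT and 3.9 to 5.88 in vehicle-treated Ncf1-/- libraries, without overlap. Scaled by library totals alone, which moved the median of all genes to 0.19, Sox4 kept its direction but not its call (−0.22, adjusted p = 0.0747). The call of Sox4 was also lost with limma at either pseudocount and with the test of the study. With library totals that makes 4 of 22 alternative settings.

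**Figure D2:**
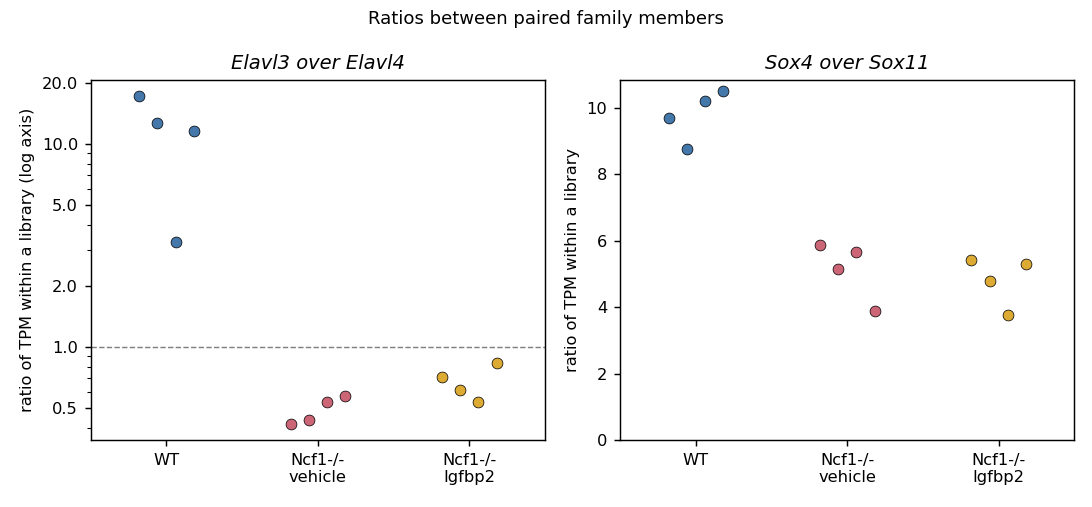
Ratio of TPM between paired family members within each library, Elavl3 over Elavl4 on a log axis (dashed line, equal levels) and Sox4 over Sox11 on a linear axis, 4 points per group. Elavl3 over Elavl4 is 3.29 to 17.2 in WT and below 1 in all 8 Ncf1-/- libraries, and Sox4 over Sox11 is 8.75 or more in WT and at most 5.88 in the Ncf1-/- libraries.

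Of the surface proteins, Cd24a, a small sialoglycoprotein of neuroblasts and ependymal cells, was at 46.85, 48.52, 114.3 and 39.64 CPM in WT and at 174.2, 189.5, 178.3 and 232.5 CPM in vehicle-treated Ncf1-/- cultures. WT replicate 3 was well above the other WT cultures yet below every Ncf1-/- culture. Cd24a was 3.1-fold higher (1.63 ± 0.27, edgeR adjusted p = 0.000196), and the log2 difference was between 1.44 and 2.11 with any single library left out. Ncam1, the neural cell adhesion molecule that carries polysialic acid on migrating neuroblasts, was at 401.9, 397.8, 428.9 and 636.7 CPM in WT and 282.8, 311.5, 312.8 and 379.2 CPM in Ncf1-/- cultures. Its highest library was WT replicate 4, whose treatment is in doubt, and the groups did not overlap. It was 1.45-fold lower (−0.54 ± 0.15, edgeR adjusted p = 0.00736). That call was lost in 4 of 22 alternative settings. These were library totals (−0.35, adjusted p = 0.0647), limma on log2(TPM + 1) and log2(TPM + 0.1), and the test of the study on TPM. Without WT replicate 4 all 10 genes were still called, 3 higher and 7 lower, beside 55.3% of all genes. The same held without WT replicate 3, beside 59.1% of all genes. The test that the study applied to TPM called 6 of the 10 (1 higher, 5 lower), beside 9.45% of all genes it was run on. Those were all 45792 genes, with the ones below the filter on low counts included. This share is therefore not like the others given here.

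**Figure D3:**
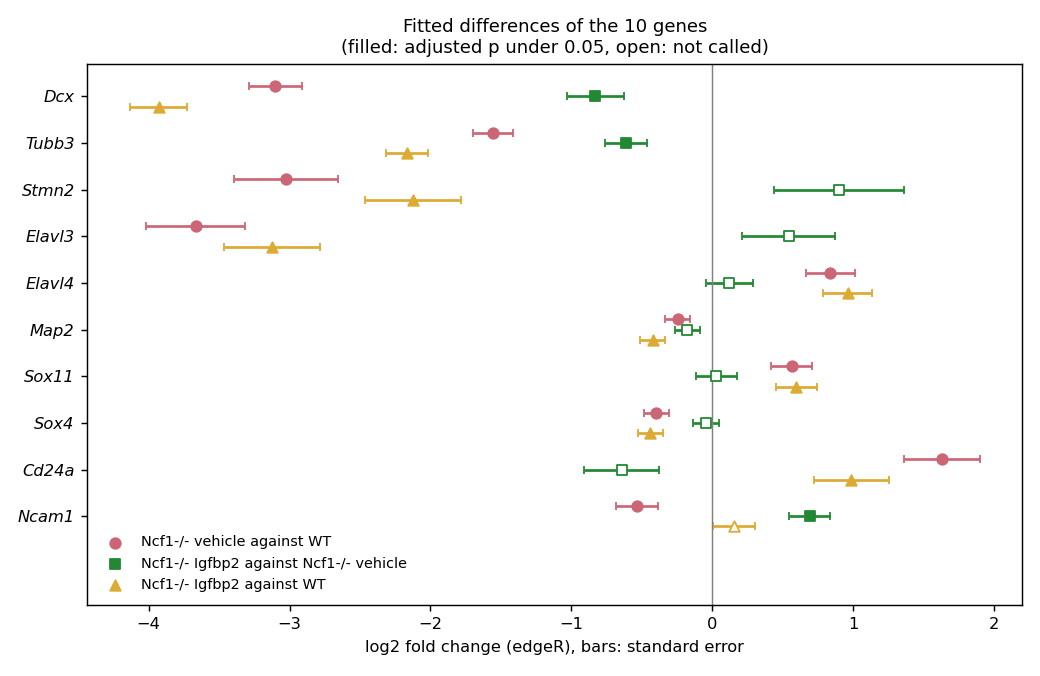
Fitted log2 fold change (edgeR) of each gene with a standard error derived from its test statistic, for 3 comparisons that share libraries. Filled symbols passed an adjusted p of 0.05 and open symbols did not. In vehicle-treated Ncf1-/- cultures against WT all 10 symbols are filled, and with Igfbp2 against vehicle only those of Dcx, Tubb3 and Ncam1.

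To ask whether added Igfbp2 shifts these genes, Igfbp2-treated and vehicle-treated Ncf1-/- cultures were compared in the same fit. Of the 10 genes 3 were called, Ncam1 higher and Dcx and Tubb3 lower, beside 25% of all genes called (14.2% higher, 10.7% lower). Dcx was at 3.71, 3.97, 4.45 and 5.25 CPM with Igfbp2, below each vehicle-treated library. It fell further from WT, by 0.83 ± 0.20 on the log2 scale (edgeR adjusted p = 0.0113). Tubb3 was at 7.20, 8.41, 7.13 and 7.02 CPM with Igfbp2 and fell by 0.61 ± 0.15 (edgeR adjusted p = 0.0114). Dcx and Tubb3 each lost their call in 2 of 23 alternative settings, among them the threshold of 0.01. Ncam1 went the other way, to 473.8, 511.5, 554.1 and 537.9 CPM. All 4 values lay above the vehicle-treated cultures, with a 1.61-fold higher level (0.69 ± 0.15, edgeR adjusted p = 0.0065). On TPM the groups overlapped (59.59 to 99.16 with Igfbp2 and 52.79 to 84.43 with vehicle), and the call was lost with limma on log2(TPM + 1) (0.23, adjusted p = 0.379), with limma on log2(TPM + 0.1) (0.24, adjusted p = 0.373) and with the test of the study (0.24, adjusted p = 1).

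The other 7 were not called. Cd24a was at 128.2, 121.3, 134.3 and 112.1 CPM with Igfbp2, below every vehicle-treated culture (−0.64 ± 0.26, edgeR adjusted p = 0.0916). Elavl3 was at 18.33, 20.43, 20.18 and 21.9 CPM, above every vehicle-treated culture (0.54 ± 0.33, edgeR adjusted p = 0.24). Map2, at 416.6 to 441.8 CPM, lay below every vehicle-treated culture as well (−0.18 ± 0.09, edgeR adjusted p = 0.158). Groups of Dcx, Tubb3, Map2, Cd24a, Elavl3 and Ncam1 thus did not overlap, 6 of 10 genes beside 34.1% of all genes. Those of Stmn2 (3 to 6 counts with Igfbp2), Elavl4 (11.46 to 14.59 CPM), Sox11 (196.1 to 263 CPM) and Sox4 (565.4 to 657.8 CPM) overlapped the vehicle-treated cultures. The log2 differences of Elavl4 (0.12 ± 0.17), Sox11 (0.03 ± 0.14) and Sox4 (−0.04 ± 0.09) were smaller than their errors, with edgeR adjusted p of 0.622, 0.896 and 0.755.

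These calls depended on which libraries set the spread. With only the Ncf1-/- cultures fitted and the culture number as a block, pairs stated by the study, Stmn2 was below the filter and 6 of the other 9 were called, beside 36% of all genes: Cd24a (−0.68, adjusted p = 0.00208), Elavl3 (0.49, adjusted p = 0.00295) and Map2 (−0.22, adjusted p = 0.0475) joined the 3 above. In those 8 libraries without the block 6 of 9 were called, beside 37.8% of all genes. The stated pairs are not borne out by the Y-linked sums, 105 to 116 CPM with vehicle and 7.79 to 9.18 CPM with Igfbp2. The block is therefore not read as a paired result. Without WT replicate 3 alone 5 of the 10 were called, beside 30.6% of all genes, with Cd24a at −0.64 (adjusted p = 0.00102) and Elavl3 at 0.54 (adjusted p = 0.0258), and without WT replicate 4 there were 4, beside 26.4% of all genes, with Cd24a at −0.68 (adjusted p = 0.0458).

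Set beside WT, Igfbp2-treated Ncf1-/- cultures differed in 9 of the 10 genes, 3 higher and 6 lower, beside 62.4% of all genes (31.6% higher, 30.8% lower). Because this comparison shares its libraries with the others, its values are given side by side with them and are no independent evidence. Stmn2 is 1 of the 6 and had again passed the filter through WT. Dcx was 15.2-fold lower than in WT (−3.93 ± 0.20, edgeR adjusted p = 2.4e-08) after having been 8.58-fold lower with vehicle, and Tubb3 4.49-fold lower after 2.94-fold. Elavl3 was 8.72-fold and Stmn2 4.36-fold lower, after 12.7-fold and 8.14-fold with vehicle. Cd24a was 1.98-fold higher after 3.1-fold (0.99 ± 0.27, edgeR adjusted p = 0.0059), and its highest WT library exceeded the lowest Igfbp2-treated one.

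Ncam1 was the gene not called against WT with Igfbp2, at 1.11-fold (0.16 ± 0.15, edgeR adjusted p = 0.377). Its 4 treated libraries lay above WT replicates 1, 2 and 3 and below WT replicate 4, and without WT replicate 4 it was called higher (0.27, adjusted p = 0.0383). Elavl4 (0.96 ± 0.17), Sox11 (0.60 ± 0.15), Sox4 (−0.44 ± 0.09) and Map2 (−0.42 ± 0.09) kept the direction they had with vehicle, with edgeR adjusted p of 0.000358, 0.00308, 0.00103 and 0.00109. Groups did not overlap for 8 of the 10 genes, all but Cd24a and Ncam1, beside 54.3% of all genes.

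RSEM also estimates the mean length of the transcripts of a gene, weighted by their abundance, which moves when a culture uses longer or shorter isoforms. It could be tested (limma on log2 length) for the 4 members that have several transcripts and at least 10 counts in each library: Dcx, Elavl4, Map2 and Ncam1. Ncam1 averaged 3694, 3672, 3672 and 3679 bases in WT and 3791, 3845, 3876 and 3983 bases in vehicle-treated Ncf1-/- cultures. Every Ncf1-/- library was longer than every WT library, and the WT libraries lay close together. The change was 5.27% (limma adjusted p = 0.0224), in a comparison in which 2.55% of the 9328 genes with a testable length were called. With Igfbp2 it was 3850, 3823, 3785 and 3858 bases, which differed from vehicle by −1.14% (adjusted p = 0.642) and from WT by 4.07% (adjusted p = 0.0504), where 1.57% and 3.53% of genes were called. No change in its length was called with Igfbp2.

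The length call for Ncam1 was narrow: it was lost on leaving out WT replicate 1, 2 or 4 or Ncf1-/- replicate 3 (adjusted p = 0.0507, 0.0616, 0.0573 and 0.0623), with changes between 5.2% and 5.41%. Ncam1 counts were not whole numbers in any library, as RSEM gives where reads map to more than 1 gene. Map2, whose long isoforms belong to mature dendrites and whose short ones belong to young cells, averaged 3012, 2804, 2938 and 2740 bases in WT and 2945, 3110, 3205 and 3739 bases in vehicle-treated Ncf1-/- cultures. These groups overlapped, and the difference of 12.7% was not called (limma adjusted p = 0.221). Dcx (8.58%, adjusted p = 0.868) and Elavl4 (3.63%, adjusted p = 0.936) were not called either. These 3 differences moved with single libraries: without vehicle-treated Ncf1-/- replicate 4 they were 7.43% for Map2, 1.66% for Dcx and −3.92% for Elavl4, and without WT replicate 4 that of Elavl4 was −0.336%. That of Dcx was 15.7% without Ncf1-/- replicate 2.

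**Figure D4:**
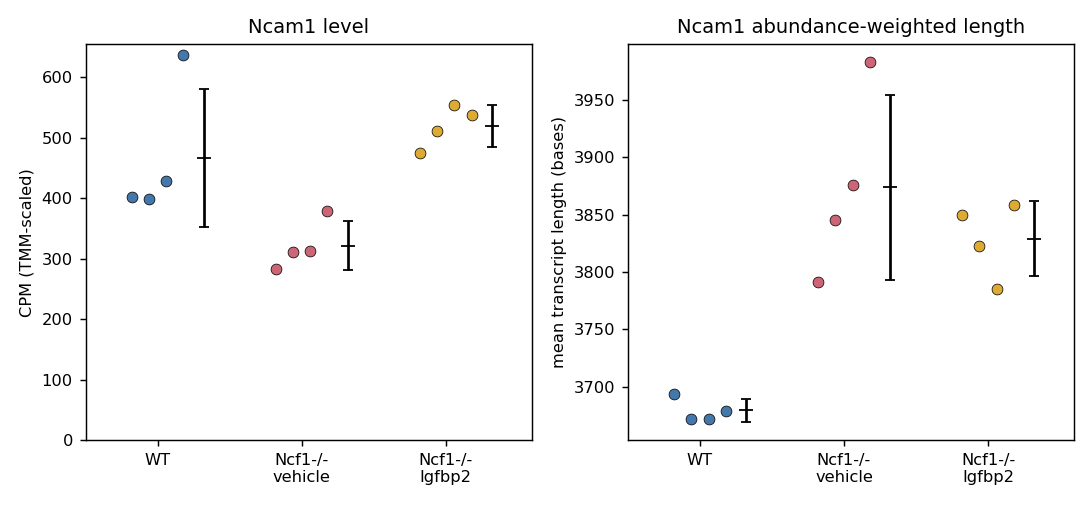
Ncam1 in the 12 libraries, with its level in CPM (TMM-scaled, axis from 0) at the left and the abundance-weighted mean length of its transcripts in bases (axis not from 0) at the right, points for libraries and mean ± SD beside them. The level is lowest in vehicle-treated Ncf1-/- cultures, while the length is 3672 to 3694 bases in WT and 3785 bases or more in all 8 Ncf1-/- libraries.

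The genes lie on 9 chromosomes, Elavl3 and Ncam1 sharing chromosome 9 but far apart (GENCODE M21, GRCm38). Dcx lies on the X chromosome (143855842 to 143933311, minus strand), Elavl3 on chromosome 9 (22015005 to 22052023, minus strand), Ncam1 on chromosome 9 (49502136 to 49798925, minus strand) and Cd24a on chromosome 10 (43578284 to 43584265, plus strand). Exons of Elavl3 overlap those of Gm49318 on the same strand, which was not analysed here. Exons of Map2, Sox4 and Ncam1 overlap those of genes on the opposite strand. The counts of these partners were at most 29 (Gm10558), 0 (Gm26735) and 10.18 (Gm11149) in any library, small beside those of the members.

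Genes whose pattern over the 12 libraries was most like that of Dcx were sought among 11171 genes averaging 5 CPM or more, by the root mean square difference of centred log2 CPM. The closest 5 were Col9a1 (0.306), Opcml (0.307), Tmeff2 (0.318), Id4 (0.349) and Grik3 (0.353). Within the group of 10, Elavl3 (0.645), Tubb3 (0.821) and Stmn2 (0.974) came nearest to Dcx, and Cd24a (2.382), Elavl4 (2.133) and Sox11 (1.962) were farthest. Id4, which binds and blocks basic helix-loop-helix factors, was at 80.28 ± 9.25 CPM in WT and 12.52 ± 0.33 CPM in vehicle-treated and 7.39 ± 1.42 CPM in Igfbp2-treated Ncf1-/- cultures. From vehicle to Igfbp2 the means of the others went from 3.68 to 2.87 (Col9a1), 14.16 to 11.95 (Opcml), 19.43 to 15.85 (Tmeff2) and 28.83 to 22.73 CPM (Grik3). Libraries of Col9a1 and Opcml overlapped between these groups. These genes were chosen for their likeness over the same 12 libraries, so their levels are a description with no test.

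Other genes of the neuronal lineage were counted in lists written from general knowledge, and each count can be read beside the 57.2% of all genes called, 28.9% higher and 28.2% lower. Of 25 transcription factors of neurogenesis 16 could be tested between vehicle-treated Ncf1-/- and WT cultures, of which 11 were called lower and 3 higher, with a median log2 fold change of −0.89. Neurod1, St18, Scrt2 and Ebf2, 4 of the 11, had passed the filter through WT alone, so the count and the median lean lower by the filter, and the other 12 split into 7 lower and 3 higher. Myt1, a zinc-finger factor that promotes neuronal differentiation, fell from 118.1 to 43.69 CPM (−1.44, edgeR adjusted p = 8.13e-07), and Sox12, the third SoxC gene, fell from 109.5 to 54.13 CPM (−1.02, edgeR adjusted p = 1.56e-05). Sox12 thus moved with Sox4 and against Sox11. Btg2, an antiproliferative gene of neurogenic divisions (0.60, edgeR adjusted p = 0.0206), and Hes6, an antagonist of Hes1 (0.39, edgeR adjusted p = 0.00912), rose. Of 19 olfactory bulb and forebrain interneuron genes 11 were tested, 5 lower and 1 higher (median −0.43), a share called near that of all genes. The homeobox genes Dlx2 (21.26 to 4.94 CPM, −2.11, edgeR adjusted p = 1.35e-05) and Dlx1 (11.36 to 3.73 CPM, −1.61, edgeR adjusted p = 0.000218) led those that fell.

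Cytoskeletal partners of Dcx, Tubb3 and Stmn2 were split as well. Of 28 cytoskeletal and growth cone genes 27 were tested, 17 lower and 4 higher (median −0.52). Map1b, a microtubule-associated protein of growing axons, fell from 1782 to 51.23 CPM (−5.12, edgeR adjusted p = 1e-06) and Ina, an intermediate filament of young neurons, from 13.88 to 1.87 CPM (−2.89, edgeR adjusted p = 9.85e-08). Gap43, a growth cone protein that glial progenitors also make, rose from 52.55 to 139.1 CPM (1.40, edgeR adjusted p = 5.96e-05), and Stmn1, the stathmin of dividing cells, rose from 160.9 to 333.2 CPM (1.05, edgeR adjusted p = 6.6e-06), unlike its relative Stmn2. All 12 neuronal RNA-binding and splicing genes were tested, 5 lower and 1 higher (median −0.32), no larger a share called than that of all genes, with Nova2 (−1.05, edgeR adjusted p = 9.77e-06) and Nova1 (−0.35, edgeR adjusted p = 0.00115) among those that fell and Ptbp2 (0.27, edgeR adjusted p = 0.0258) the one that rose.

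Ncam1 works beside other adhesion molecules and the enzymes that add polysialic acid to it. Of 9 polysialyltransferases and neural adhesion molecules 7 were lower and 1 higher (median −1.35), of which L1cam, among the lower, had passed the filter through WT alone. Ncam2, its closest relative, fell from 139.1 to 40.98 CPM (−1.76, edgeR adjusted p = 1.76e-06) and Nfasc, also a protein of myelinating cells, from 1499 to 48.74 CPM (−4.94, edgeR adjusted p = 1.07e-06), while Chl1 rose from 49.05 to 140.6 CPM (1.51, edgeR adjusted p = 0.00111). Of 18 mature neuron and synaptic genes 16 were tested, 9 lower and 2 higher (median −0.32). Nrgn, a calmodulin-binding postsynaptic protein, rose from 0.661 to 7.07 CPM (3.25, edgeR adjusted p = 3.67e-06), having passed the filter through the Ncf1-/- libraries alone, with Camk2a also higher (0.66, edgeR adjusted p = 0.0202). Of 7 repressors of neuronal genes 4 were lower and 2 higher (median −0.29). The Notch effectors split, Hes1 rising from 5.28 to 29.17 CPM (2.41, edgeR adjusted p = 6.62e-05) and Hes5 falling from 147.1 to 62.66 CPM (−1.23, edgeR adjusted p = 0.000128), while Ptbp1 rose (0.30, edgeR adjusted p = 0.0245) and Rcor2 fell (−0.48, edgeR adjusted p = 0.00468).

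**Figure D5:**
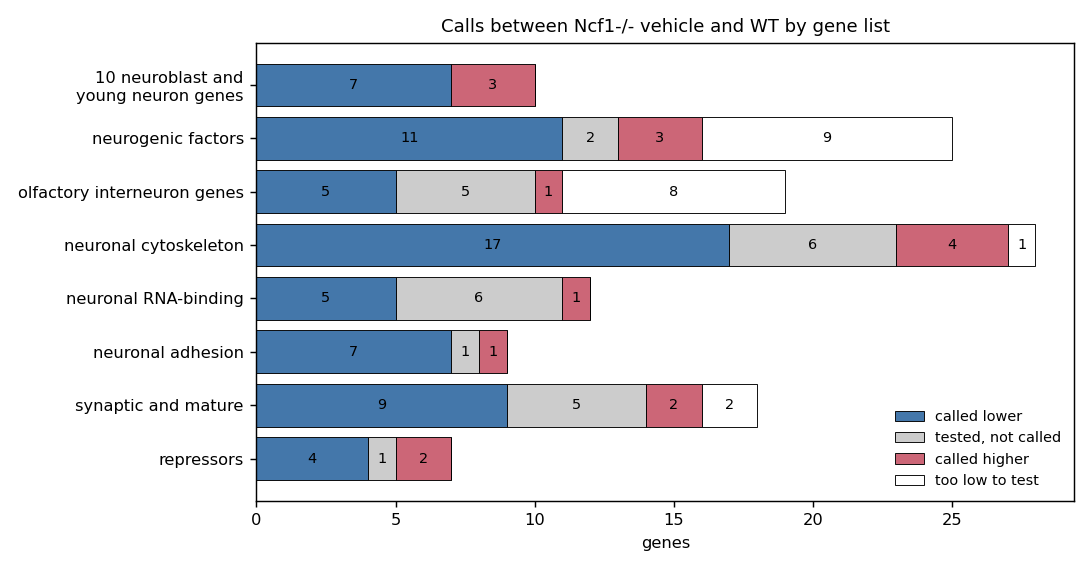
Number of genes of each list called lower, not called, called higher or too low to test between vehicle-treated Ncf1-/- and WT cultures (edgeR, adjusted p under 0.05). More genes are called lower than higher in each list, for example 17 against 4 of the cytoskeletal genes and 7 against 1 of the adhesion genes. With library totals the 7 repressors had 1 lower and 2 higher, beside 58.5% of all genes called.

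With Igfbp2 against vehicle, where 25% of all genes were called, there were 0 higher and 1 lower of the 16 neurogenic factors, 2 and 1 of 11 interneuron genes, 1 and 2 of 27 cytoskeletal genes, 2 and 3 of 12 RNA-binding genes, 1 and 0 of 9 adhesion genes, 3 and 1 of 16 synaptic genes and 2 and 1 of 7 repressors. Myt1 fell further, by 0.93 on the log2 scale (edgeR adjusted p = 0.000755), and so did Dlx1 (−0.86, edgeR adjusted p = 0.0489), Nova1 (−0.36, edgeR adjusted p = 0.0048) and Hes5 (−1.48, edgeR adjusted p = 0.000869), in the direction of Dcx and Tubb3. Map1b (1.23, edgeR adjusted p = 0.0324) and Nova2 (0.55, edgeR adjusted p = 0.00682) rose, in the direction of Ncam1. Stmn1 fell (−0.51, edgeR adjusted p = 0.00798), as did Ptbp2 (−0.77, edgeR adjusted p = 0.000619), and Nrgn (1.11, edgeR adjusted p = 0.011) and Ptbp1 (0.31, edgeR adjusted p = 0.0424) rose further. Against WT, Igfbp2-treated cultures had 11 lower and 2 higher neurogenic factors, 5 and 3 interneuron genes, 17 and 4 cytoskeletal genes, 7 and 0 RNA-binding genes, 6 and 1 adhesion genes, 7 and 4 synaptic genes and 3 and 2 repressors. Of all genes 62.4% were called in that comparison, 31.6% higher and 30.8% lower. Neurod1, St18, Scrt2, Ebf2 and L1cam, all lower, had passed the filter through WT alone. Nrgn, higher, had passed it through the Ncf1-/- libraries alone, so the filter favoured these calls.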

How the data were processed

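RNA of 12 neurosphere cultures (4 per group) was depleted of rRNA by the authors, mapped with Bowtie2 and quantified with RSEM on GRCm38 (processing notes; versions and annotation release not given in the sources used here). The authors deposited, per library, RSEM expected counts (estimated counts, without normalization, 15.88% of them not whole at a tolerance of 0.005), TPM, FPKM and the abundance-weighted transcript length in bases. FPKM was not used. A merged table deposited by the authors holds a score within 1% of TPM times the number of transcripts for 100% of values above 0, and served only to pair identifiers with symbols.

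The counts, rounded, went into edgeR 4.0.16 (R 4.3.3) with filterByExpr, TMM factors and a quasi-likelihood fit of 3 group means without covariates. CPM are scaled by TMM. The SE of an edgeR log2 fold change was derived from its test, as the absolute log2 fold change divided by the square root of the F statistic. Transcript lengths were tested on the log2 scale with limma 3.58.1 in genes with 2 or more transcripts and at least 10 counts in every library. Scripts were tested on simulated data with known changes. Alternatives were DESeq2 1.42.0, other scalings, filters and thresholds, limma on log2(TPM + 1) and log2(TPM + 0.1), voomWithQualityWeights, the ANOVA and Tukey test of the study, and each library left out. List counts without WT replicate 3 or 4 and with library totals, and the genes that pass the filter in WT or in Ncf1-/- libraries alone, were added after seeing the data. Depth was 18201622 to 34086554 counts per library. Even the closest replicate pair differed beyond sampling (chi-square divided by its degrees of freedom, 4.63), so no library was taken as a repeat of another.

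The study states that Ncf1-/- cultures with matching numbers came from 1 pup, which the replicate block used. After removal of group means, same-numbered cultures correlated at −0.0521 to 0.000808 (4 pairs), and others at −0.183 to 0.187 (12 pairs). Neither these correlations nor the Y-linked levels bear the stated pairs out. Each culture came from a separate pup within a group, according to the methods.

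Members and lists were chosen with earlier results of these data known. Named are all 10 members, from each list up to 2 genes that rose and 2 that fell the most among those called between vehicle-treated Ncf1-/- and WT cultures averaging 5 CPM or more, and the 5 genes most like Dcx. A few list genes chosen this way are left out of the text.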

Additional observations from a re-analysis of the deposited data

Results flagged for a closer look

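In 4 of 30 groups of 4 libraries (10 genes in 3 groups), 1 library lay far from the other 3 for its group, by Dixon's ratio of the gap to the range at its 95% limit. Chance flags about 1 group in 20. Cd24a was at 114.3 CPM in WT replicate 3, with a gap of 0.881 of the range, and this library also had the lowest Elavl3 of the WT cultures. Ncam1 was at 636.7 CPM in WT replicate 4 (0.87 of the range), the library whose treatment is listed differently in the code of the study. Map2 was at 524.9 CPM in vehicle-treated Ncf1-/- replicate 4 (0.839 of the range), and Tubb3 at 8.414 CPM in Igfbp2-treated replicate 2 (0.872 of the range).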

How the results depend on the processing

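Without TMM factors the median of all genes moved to 0.19 (vehicle-treated Ncf1-/- against WT), −0.23 (Igfbp2 against vehicle) and −0.1 (Igfbp2-treated Ncf1-/- against WT), and the genes called with Igfbp2 changed from 2238 higher and 1685 lower to 648 and 5258. With limma on log2(TPM + 1) these medians were 0.04, −0.3 and −0.25, against 0.06, −0.43 and −0.43 when the study's test was applied to TPM.

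Of the 10 genes, the study's own test called 6 between vehicle-treated Ncf1-/- and WT cultures, beside 9.45% of all genes. Library totals called 7 (3 higher, 4 lower), beside 58.5% of all genes. Limma at either pseudocount called 7 (2 higher, 5 lower), without Sox11, Sox4 and Ncam1, beside 42.4% and 41.6%. When any library was left out 9 to 10 were called, beside 51.5% to 59.1% of all genes. For Igfbp2 against vehicle the main count was 1 higher and 2 lower, with 25% of all genes called. There were 6 (1 higher, 5 lower; 37.6% of all genes) with library totals, 6 of 9 tested (2 and 4) with only the 2 groups (37.8%) and with the replicate block (36%), 7 (3 and 4) with voomWithQualityWeights (49.3%), 5 (0 and 5) with limma at either pseudocount (40.5% and 41.5%), 1 with the study's own test (4.69%), 1 at an adjusted p under 0.01 (9.64%), and 3 to 5 when a library was left out. Shares for the study's own test are over all 45792 genes, those below the filter included, and are unlike the others. The length call for Ncam1 came to 0 to 1 genes when a library was left out, both between vehicle-treated Ncf1-/- and WT and between Igfbp2-treated Ncf1-/- and WT, and to 1 gene in the latter at 50 or more counts.

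Directions that reversed were of log2 differences not called in the main analysis. With Igfbp2, Elavl4 was −0.15 with library totals, −0.29 and −0.37 with limma at pseudocounts of 1 and 0.1, and −0.32 by the study's own test. Sox11 was −0.24, −0.41, −0.43 and −0.43 under the same 4, −0.03 at a mean of at least 5 CPM, −0.01 with only the 2 groups, 0 with the replicate block, and −0.08 to 0.2 with a library left out. Sox4 was 0 with voomWithQualityWeights. Ncam1 in Igfbp2-treated Ncf1-/- against WT was −0.31 and −0.31 with limma and −0.33 by the study's test. The cause was not tested.

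For the lists, library totals gave 3 of 12 RNA-binding and 3 of 7 repressor genes between vehicle-treated Ncf1-/- and WT. Of all genes 58.5% were called there. With Igfbp2 against vehicle they gave 4 of 16 neurogenic, 5 of 11 interneuron, 10 of 27 cytoskeletal and 1 of 7 repressor genes. The share of all genes was 37.6%. Also with Igfbp2, leaving out WT replicate 3 gave 2 of 18 neurogenic, 5 of 27 cytoskeletal and 2 of 9 adhesion genes. Leaving out WT replicate 4 gave 1 of 17, 3 of 27 and 1 of 9. Shares of all genes were 30.6% and 26.4%. Stmn2 was limited by depth, with 1 to 6 counts per Ncf1-/- library.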
